A study of Mus musculus with 12 samples.

Results

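Of 9 transcription factors that direct effector and regulatory T cells, Batf was higher in Bcl11b mutant pre-selection thymocytes and Ahr was lower in one of the mutants, whereas the lineage factors Tbx21, Eomes and Foxp3 did not exceed 0.4154 FPKM in any library. The 9 genes (Tbx21, Eomes, Foxp3, Prdm1, Rora, Ahr, Batf, Irf4 and Irf8) were taken by symbol from a table of 23234 rows of RNA-seq expression, in which each symbol was found. Expression was given as FPKM, a fragment count scaled to transcript length and library size. Cells were CD4+CD8+ (DP) thymocytes of the CD24hi TCRβlo phenotype, the stage before positive selection, sorted from C57BL/6 thymus. There were 5 wild-type newborn libraries, 3 newborn Bcl11bm/m libraries and 4 Bcl11bfl/fl:Cd4-Cre libraries. Bcl11b encodes a zinc-finger factor needed for T cell commitment, and the m allele makes a truncated protein without the final zinc finger, with homozygotes dying as neonates. In Bcl11bfl/fl:Cd4-Cre mice, Cd4-Cre deletes the floxed gene in thymocytes once Cd4 is expressed (no label states how old they were). Groups follow the sample titles, because the description fields disagree with them (every library titled wild-type is described as Bcl11bm/m and every Cd4-Cre library as Bcl11b+/+). The extraction text of the labels speaks of sorted double-negative NKT cells and a low-input cDNA kit, whereas the source names and descriptions give pre-selection DP cells, so the cell type was checked by its markers. No label says that libraries of a group came from separate mice, so the p-values measure the spread between these libraries.

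T-bet (encoded by Tbx21) and Eomes are T-box factors that drive Th1, cytotoxic and NK cell genes, Foxp3 specifies regulatory T cells, and Blimp-1 (Prdm1) is a repressor of differentiated effector cells. RORα (Rora) takes part with RORγt in Th17 cells and is needed for ILC2 cells, and the aryl hydrocarbon receptor (Ahr) is a ligand-activated factor used by Th17, Th22 and intestinal lymphocytes. BATF is an AP-1 factor without a transactivation domain of its own, which binds DNA with a JUN partner and, at composite sites, with IRF4 or IRF8 after antigen receptor signalling. Most of these genes are switched on in thymocytes or peripheral T cells only after T cell receptor or cytokine signals.

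The check of the sort and of the targeted gene was as follows. All 12 markers of pre-selection DP thymocytes averaged at least 1 FPKM in every group, with sums ranging from 5252 to 6987 FPKM (wild-type), 3951 to 4490 (Bcl11bm/m) and 3653 to 5713 (Bcl11bfl/fl:Cd4-Cre). By limma 6 of the 12 fell in Bcl11bm/m and 2 in Bcl11bfl/fl:Cd4-Cre, and none rose. In Bcl11bm/m Ptcra fell from 38.2 ± 5.68 (SD) to 7.81 ± 3.8 FPKM (limma adjusted p = 7.6e-04) and Cd4 from 598 ± 52.5 to 299 ± 18.5 (0.00215). Cd24a fell from 181.7 ± 37.35 to 79.8 ± 7.41 there (0.00422) and to 80.2 ± 12.6 in the Cd4-Cre group (0.00517). These calls were kept whichever library was left out. Those of Rag2 and Arpp21 were lost only without Bcl11bm/m replicate 2. With 1 library left out, the call of Cd8b1 in Bcl11bm/m was lost in 6 of 8 cases (all but wild-type replicates 1 and 4, limma adjusted p up to 0.12) and that of Themis in the Cd4-Cre group in 6 of 9 (all but wild-type replicates 1 and 4 and mutant replicate 1, up to 0.0977). Bcl11b stood at 132 to 292 FPKM in wild-type. The Bcl11bm/m libraries, whose allele is still transcribed, had 430 to 482 FPKM. The Cd4-Cre libraries had 115 to 140 FPKM, which overlapped wild-type (log2 difference of -0.68 ± 0.24 (SE), limma adjusted p = 0.0828), so the level of this mRNA does not by itself check the deletion. Zbtb7b, which encodes the CD4-lineage factor ThPOK, was 0 to 0.2155 FPKM in wild-type, 41.1 to 50.4 in Bcl11bm/m and 9.44 to 56.6 in the Cd4-Cre group. The CD8-lineage factor gene Runx3 was 1.97 to 6.40, 14.2 to 18.3 and 11.46 to 34.7 FPKM, so for both genes the titled mutants did not overlap the titled wild-type. By the paper's flow cytometry, a Thpok-GFP reporter was absent in control pre-selection thymocytes and present in nearly all those from Bcl11bm/m progenitors. It was on in part of those of Bcl11bfl/fl:Cd4-Cre mice, where a Runx3 reporter was not detected. That reporter follows only the distal P1 promoter of Runx3, whereas the FPKM here is for the whole gene. The Bcl11bm/m cells in that flow cytometry had grown from fetal liver in Rag1-deficient hosts, unlike the newborn cells here. The smallest step between low FPKM values put depth at about 3900000 to 6790000 mapped fragments (wild-type), 2720000 to 4220000 (Bcl11bm/m) and 10760000 to 45330000 (Bcl11bfl/fl:Cd4-Cre). A listed 0 can be a failed estimate, since 37 rows with a median above 20 FPKM had a library at 0. Members with any library at 0 are therefore given by their single values, and fitted differences of other such genes carry this limit.

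In wild-type thymocytes Batf was the highest of the 9 genes, with a median of 5.31 FPKM, and all 5 of its values lay above every value of the next gene. Irf8 followed at a median of 1.57 FPKM, then Irf4 at 1.12, Rora at 0.798, Ahr at 0.615, Prdm1 at 0.327 and Tbx21 at 0.210. Neighbours in this order overlapped between Irf8 and Tbx21. Foxp3 (median 0.0465 FPKM) and Eomes (0.0023) came last, with every Foxp3 value below every Tbx21 value. A total of 4 genes (Batf, Irf8, Irf4 and Rora) reached a mean of 1 FPKM over the 12 libraries and entered the limma test across 10780 rows. Rora passed this filter through the Bcl11bfl/fl:Cd4-Cre group, since its wild-type mean was 0.716 FPKM. The other 5 genes were compared by exact permutation of the libraries, and by limma on all 17153 rows above 0 in any library.

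**Figure D1:**
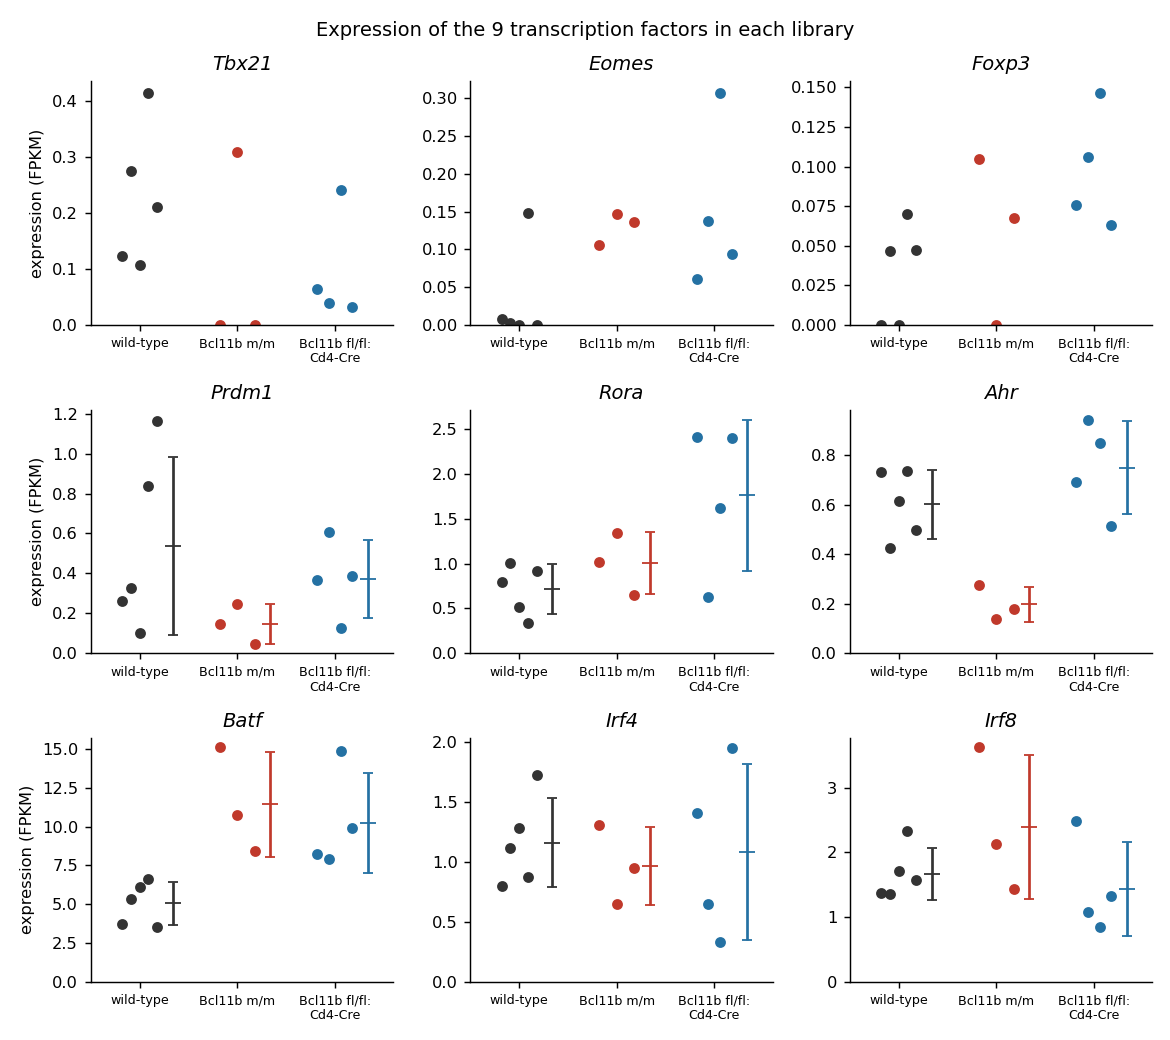
Expression in FPKM (y axis, own scale for each gene) of the 9 transcription factors in 5 wild-type, 3 Bcl11bm/m and 4 Bcl11bfl/fl:Cd4-Cre libraries. Each point is a library, and bars give mean ± SD for genes with no library at 0. All Batf values of both mutants lie above the 5 wild-type values, and the 3 Ahr values of Bcl11bm/m lie below all others.

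Of the 4 genes in the limma test, Batf alone was called at an adjusted p under 0.05, in both mutants and upward. Among all genes tested, 17.3% were called in Bcl11bm/m against wild-type (9.92% higher and 7.39% lower) and 14.5% in Bcl11bfl/fl:Cd4-Cre against wild-type (4.65% higher and 9.86% lower). In the direct comparison of the mutants none of the 4 genes was called by limma or had an unadjusted p under 0.05, against 10.2% of all genes called (7.63% higher and 2.6% lower in Bcl11bm/m). Under median-ratio scaling and quantile normalization, higher and lower calls were closer in number here and in Bcl11bfl/fl:Cd4-Cre against wild-type (last section). Mean FPKM of the 9 genes was higher than in wild-type for 5 and lower for 4 in either mutant, so the group showed no common direction. Exact permutation tests were made for 27 combinations of gene and comparison and were not adjusted. The smallest p they allow is 0.0357 for Bcl11bm/m against wild-type, 0.0159 for Bcl11bfl/fl:Cd4-Cre against wild-type and 0.0571 between the mutants, so that the last comparison cannot pass 0.05. Against wild-type 2 of the 9 genes had a permutation p under 0.05 in either mutant (Batf and Ahr in Bcl11bm/m, Batf and Foxp3 in Bcl11bfl/fl:Cd4-Cre). Such a p was found for 25.4% and 28.3% of all genes past the filter, and for 9.46% and 8.87% of those under it. Without the filter limma called Batf and Ahr in Bcl11bm/m (11.3% of all rows, 4.05% called lower), no member in the Cd4-Cre group against wild-type (7.29% of all rows), and Ahr between the mutants (7.06% of all rows, 1.64% called lower).

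Batf lies on chromosome 12 at 87027619 to 87050037 (NCBIM37, plus strand). Its values in wild-type replicates 1 to 5 were 3.69, 5.31, 6.08, 6.62 and 3.52 FPKM. In Bcl11bm/m they were 15.1, 10.7 and 8.43 FPKM, and in Bcl11bfl/fl:Cd4-Cre 8.22, 7.92, 14.9 and 9.88 FPKM. The lowest mutant library was thus above the highest wild-type library in both comparisons, and replicate 1 of Bcl11bm/m and replicate 3 of Bcl11bfl/fl:Cd4-Cre were the highest. Such separation upward was found for 14.6% and 5.44% of the genes past the filter, respectively. Mean expression was 5.04 ± 1.39 FPKM (SD, n = 5) in wild-type, 11.4 ± 3.41 (n = 3) in Bcl11bm/m and 10.2 ± 3.21 (n = 4) in Bcl11bfl/fl:Cd4-Cre. Batf rose 2.27-fold in Bcl11bm/m (log2 difference of 1.04 ± 0.24 (SE), limma adjusted p = 0.0219, exact permutation p = 0.0357). It rose 2.03-fold in Bcl11bfl/fl:Cd4-Cre (log2 difference of 0.88 ± 0.22, limma adjusted p = 0.0270, exact permutation p = 0.0159). All log2 differences are on the log2(FPKM + 1) scale, which understates the change of low genes. Between the mutants the difference was 0.15, with a 95% confidence interval of -0.44 to 0.75 (limma adjusted p = 0.732).

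The Batf calls were close to the threshold. Without replicate 1 or replicate 2 of Bcl11bm/m the adjusted p became 0.0832 and 0.0746 (limma). In Bcl11bfl/fl:Cd4-Cre it passed 0.05 without any 1 of wild-type replicates 2 and 5 and mutant replicates 1, 3 and 4, reaching at most 0.0721, and it was 0.0557 without the filter on low genes. The log2 difference itself stayed between 0.70 and 1.22 in both comparisons whichever library was left out. These values rest on about 20 to 30 fragments per wild-type library, 34 to 42 in Bcl11bm/m and 81 to 356 in Bcl11bfl/fl:Cd4-Cre.

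Markers of other stages and cells moved in the same libraries. In these bulk samples a change in the number of cells of a type and a change in RNA per cell cannot be told apart. Of 8 post-selection thymocyte markers, 5 rose and 1 fell in Bcl11bm/m, with summed levels of 381 to 515 FPKM against 158 to 286 in wild-type. Il7r and S1pr1, which are among those that rose in both mutants, did not exceed 0.0885 and 0.0572 FPKM in wild-type and passed the filter through the mutants, so these counts are partly set by the filter. In Bcl11bfl/fl:Cd4-Cre 4 rose and 1 fell, with sums of 186 to 413 FPKM. The gene that fell was Cd69, whose values overlapped wild-type and whose call was lost in 6 of 9 cases with 1 library left out (all but wild-type replicate 1 and mutant replicates 2 and 3, limma adjusted p up to 0.113). In all 3 groups the library with the highest sum was also the highest for Batf (replicate 4 of wild-type, replicate 1 of Bcl11bm/m and replicate 3 of Bcl11bfl/fl:Cd4-Cre, with sums of 286.0, 515 and 413 FPKM). Below the top library the orders were the same in Bcl11bm/m but not in the other groups. Wild-type replicate 5 had the lowest Batf value of its group (3.52 FPKM) beside a sum of 263.2. In Bcl11bfl/fl:Cd4-Cre replicates 1, 2 and 4 the order was reversed, with sums of 214.4, 231.9 and 186.4 FPKM and Batf at 8.22, 7.92 and 9.88. Dendritic and myeloid markers summed to 22.3 to 60.7 FPKM in Bcl11bm/m, 11.4 to 15.2 in wild-type and 3.70 to 12.6 in Bcl11bfl/fl:Cd4-Cre. Of 7 testable ones 3 rose and none fell in Bcl11bm/m (limma), namely Flt3 (2.86 to 5.81 FPKM against 0 to 0.218 in wild-type), Mpeg1 (1.49 to 4.33 against 0.278 to 1.21) and Fcgr3 (0.843 to 3.02 against 0 to 0.654). Flt3 and Mpeg1 passed the filter on low genes through Bcl11bm/m alone and Fcgr3 through both mutants, so this count is partly set by the filter, and with 1 library left out the Fcgr3 call was lost in 5 of 8 cases and the Mpeg1 call in 3 (limma adjusted p up to 0.0608 and 0.0703). In the Cd4-Cre group Lyz2 and Mpeg1 fell and none rose, with the Mpeg1 call lost in 8 of 9 cases (all but wild-type replicate 1, limma adjusted p up to 0.0925). The conventional dendritic cell factor gene Zbtb46 was listed at 0 in all wild-type and Bcl11bm/m libraries. The part of these cells in the Batf difference was not tested.

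The Batf promoter window, which RefSeq gives for build GRCm38.p6 as 250 bases before and 50 after the start site, held 2 matches to RUNX motif letters (TGTGGT or TGCGGT, either strand). They are shown because Batf was the member called in both mutants, beside the only other matches found in the 8 members with a window. Among these were 1 match in Irf8 and 1 AP-1 match (TGANTCA, which reads the same on both strands) in Prdm1. Capitals mark the motif, and each line is a 30-base stretch of the gene's own strand.
Batf, chr12:85686559-85686588, plus strand, motif 149 bases before the start: ttcacctaattcTGTGGTcttttcccagat
Batf, chr12:85686652-85686681, plus strand, motif 56 bases before the start: gaattaccagaaACCACAagagagggcctg
Irf8, chr8:120738430-120738459, plus strand, motif 197 bases before the downstream one of its 2 listed starts: gcctcaggtggcACCGCActtgcctagcag
Prdm1, chr10:44458779-44458808, minus strand, motif 48 bases before the start: ggctggtaggagTGAATCAgaccgtcagta
RUNX letters occur in 22.4% and AP-1 letters in 7.81% of the 32851 promoter windows of this length. The matches describe these windows and no binding was measured at them here.

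Irf4 and Irf8, the interferon regulatory factors that bind beside BATF, overlapped between all groups. Irf4 (chromosome 13, 30841095 to 30858796) was 0.801, 1.12, 1.29, 0.871 and 1.72 FPKM in wild-type, 1.31, 0.649 and 0.948 in Bcl11bm/m and 1.41, 0.649, 0.330 and 1.95 in Bcl11bfl/fl:Cd4-Cre. The Bcl11bfl/fl:Cd4-Cre libraries held both the lowest and the highest value. The log2 difference from wild-type was -0.13 (95% confidence interval -0.51 to 0.25, limma adjusted p = 0.645) in Bcl11bm/m and -0.10 (-0.65 to 0.44, adjusted p = 0.811) in Bcl11bfl/fl:Cd4-Cre. Irf8 (chromosome 8, 123260258 to 123280594), which also marks B and dendritic cells, was 1.37, 1.35, 1.72, 2.32 and 1.57 FPKM in wild-type. In Bcl11bm/m it was 3.62, 2.12 and 1.44 FPKM, and in Bcl11bfl/fl:Cd4-Cre 2.49, 1.07, 0.845 and 1.32. The values overlapped in each comparison, with log2 differences of 0.31 (-0.18 to 0.80, limma adjusted p = 0.381) and -0.16 (-0.61 to 0.29, adjusted p = 0.623).

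The highest Irf8 value in each mutant, but not in wild-type, was in the library with the most B cell marker signal. Replicate 1 of Bcl11bm/m had a summed level of 41.2 FPKM over 11 B cell markers, against 12.3 and 12.2 in replicates 2 and 3. Replicate 1 of Bcl11bfl/fl:Cd4-Cre had 32.1 FPKM against 15.6 to 22.9, and the wild-type libraries had 17.0 to 24.5. Much of these sums was Cd79b, at a mean of 16.9 FPKM in wild-type, 11.7 in Bcl11bm/m and 15.6 in Bcl11bfl/fl:Cd4-Cre. Of 5 testable B cell markers limma called 0 in Bcl11bm/m. In the Cd4-Cre group 1 was called, Cd79a, which was higher, a call lost without wild-type replicate 4 or 5 (adjusted p up to 0.0516). Among wild-type libraries Irf8 was highest in replicate 4 (2.32 FPKM, B cell sum 20.65), whereas replicate 3 had the highest sum (24.5, with Irf8 at 1.72). The same Bcl11bm/m library also had the highest dendritic and myeloid sum, 60.7 FPKM. The part of these cells in the Irf8 values was not tested.

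Of 21 genes for AP-1 and IRF partners of BATF, 14 passed the filter. In Bcl11bm/m 5 rose and 2 fell, with a list median of 0.25 on the log2 scale against -0.02 for all genes. Jun, a classical dimer partner of BATF, rose from 2.18 ± 0.834 FPKM in wild-type to 11.46 ± 1.07 (log2 difference of 2.004 ± 0.21, limma adjusted p = 5.8e-04). The interferon-response factors Irf7 (log2 difference of 1.76) and Irf1 (1.64) and the calcium-dependent factor Nfatc2 (1.09) also rose. The fifth was Irf2 (0.46), and Bach1 (-0.70), a haem-regulated repressor, was among those that fell. Irf2 and Bach1 are named here after their values were seen, as are the JUN family genes Junb and Jund. These had higher wild-type means than Jun (24.48 and 109.6 FPKM) and were called in neither mutant. Their log2 differences were -0.02 and -0.51 in Bcl11bm/m (limma adjusted p = 0.98 and 0.219). In Bcl11bfl/fl:Cd4-Cre they were 0.11 and -0.01 (limma adjusted p = 0.851 and 0.971). In the Cd4-Cre group 3 rose and none fell, namely Jun (log2 difference of 1.42 ± 0.42, limma adjusted p = 0.0489), Irf1 (1.11) and Nfatc2 (0.97), and the list median was 0.23 against -0.09 for all genes. The Jun values of that group overlapped wild-type. With 1 library left out the Jun call was lost in 7 of 9 cases (all but mutant replicates 2 and 4, limma adjusted p up to 0.148). That of Irf1 was lost in 6 (wild-type replicates 2, 3 and 5 and mutant replicates 1, 3 and 4, up to 0.0817), whereas that of Nfatc2 was kept in all 9. In Bcl11bm/m the Irf7 call was lost without its replicate 1 or 2 (up to 0.0723) and the Nfatc2 call without its replicate 2 or 3 (up to 0.0779). Leaving out wild-type replicate 2, 3 or 5 or mutant replicate 1 left 1 call in Bcl11bfl/fl:Cd4-Cre, and leaving out replicate 2 or 3 of Bcl11bm/m left 4 calls there. Between the mutants none of the 14 was called by limma, 4 had an unadjusted p under 0.05, and 3 were called without Bcl11bfl/fl:Cd4-Cre replicate 3.

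Ahr (chromosome 12, 36182646 to 36219710) was lower in Bcl11bm/m than in either other group. Its wild-type values were 0.733, 0.428, 0.615, 0.738 and 0.497 FPKM. Bcl11bm/m libraries had 0.276, 0.137 and 0.178 FPKM, and Bcl11bfl/fl:Cd4-Cre libraries had 0.693, 0.945, 0.849 and 0.514. Every Bcl11bm/m value was below every value of both other groups. Mean expression was 0.197 ± 0.0714 FPKM (SD, n = 3) in Bcl11bm/m, 0.602 ± 0.139 (n = 5) in wild-type and 0.750 ± 0.188 (n = 4) in Bcl11bfl/fl:Cd4-Cre. The Bcl11bm/m level was 0.328 of wild-type (log2 difference of -0.42 ± 0.08, exact permutation p = 0.0357, limma without the filter adjusted p = 0.0189). Of the rows under the filter, 2.13% had all Bcl11bm/m values below wild-type and 4.91% had all of them below Bcl11bfl/fl:Cd4-Cre.

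Set against Bcl11bfl/fl:Cd4-Cre, Ahr in Bcl11bm/m was lower by a log2 difference of -0.54 (limma without the filter adjusted p = 0.0294, and 0.0291 to 0.0901 with 1 library left out, under 0.05 only without Bcl11bm/m replicate 1 or Cd4-Cre replicate 4). The exact permutation p was 0.0571, the smallest that 3 against 4 allows. Bcl11bfl/fl:Cd4-Cre did not separate from wild-type (log2 difference of 0.13, 95% confidence interval -0.08 to 0.34, exact permutation p = 0.238). The low level rests on 3 to 4 estimated fragments per Bcl11bm/m library, 11 in all, against 89 in wild-type. The ratio of fragment rates was 0.30, with an exact 95% interval of 0.14 to 0.56 for counting error alone. In the Bcl11bm/m libraries 3 fragments would correspond to 0.232 to 0.360 FPKM even on the shortest coding transcript, and all 5 wild-type values were above that. Leaving out replicate 2 or replicate 3 of Bcl11bm/m raised the adjusted p against wild-type to 0.0800 and 0.0625 (limma without the filter), an alternative chosen after the data had been seen.

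**Figure D2:**
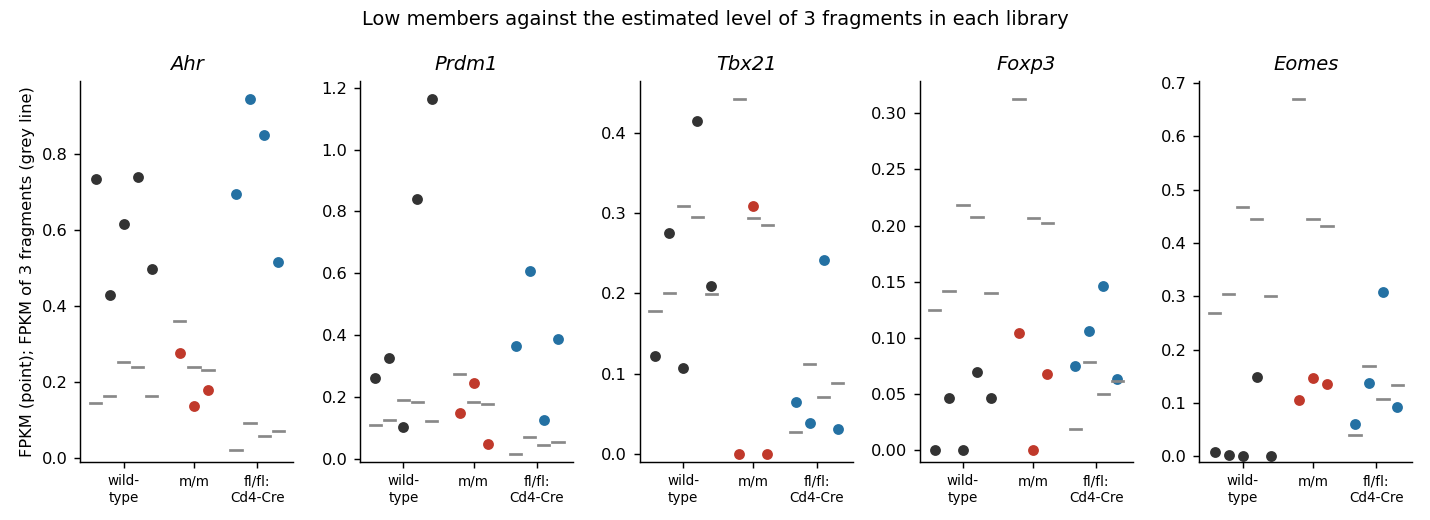
FPKM (y axis, own scale for each gene) of the 5 members under the filter in each library (points; dark, wild-type; red, Bcl11bm/m; blue, Bcl11bfl/fl:Cd4-Cre), with the FPKM that 3 fragments would give on the shortest coding transcript (grey lines). Wild-type Ahr values lie above the grey lines of the Bcl11bm/m libraries, whereas all Foxp3 and Eomes values of wild-type and Bcl11bm/m lie under their own lines.

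Of 11 genes of the Ahr pathway, which include its chaperones and its target genes, 6 passed the filter. None was called in Bcl11bm/m by limma, where 2 had an unadjusted p under 0.05 and the list median was -0.13 on the log2 scale, against -0.02 for all genes. In the Cd4-Cre group the chaperone gene Hsp90aa1 fell from 107 ± 16.3 to 55.2 ± 12.6 FPKM (log2 difference of -0.95 ± 0.19, limma adjusted p = 0.0107). Between the mutants none was called and none had an unadjusted p under 0.05 (limma). Without wild-type replicate 5 the count was 1 in Bcl11bm/m and 2 in the Cd4-Cre group. The xenobiotic-metabolism target Cyp1b1 was listed at 0 in all 12 libraries, and Cyp1a2 in all wild-type and Bcl11bm/m libraries.

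Rora (chromosome 9, 68501593 to 69236053) was highest in 3 of the 4 Bcl11bfl/fl:Cd4-Cre libraries. Wild-type values were 0.798, 1.01, 0.522, 0.339 and 0.913 FPKM. Those of Bcl11bm/m were 1.01, 1.34 and 0.656, and those of Bcl11bfl/fl:Cd4-Cre were 2.41, 0.631, 1.62 and 2.40. Replicate 2 of Bcl11bfl/fl:Cd4-Cre lay within the wild-type range, and the other 3 lay above all wild-type and Bcl11bm/m values. The log2 difference from wild-type was 0.64 (95% confidence interval 0.11 to 1.18, limma adjusted p = 0.0997, exact permutation p = 0.0635), which did not pass the threshold. Without replicate 2 it was 0.88, with an adjusted p of 0.0139 (limma), but that library was the one within the wild-type range and Rora entered the test through this group, so this value is no support for a difference. In Bcl11bm/m it was 0.23 (-0.16 to 0.61, limma adjusted p = 0.420), and between the mutants -0.42 (-1.08 to 0.24, adjusted p = 0.369).

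Markers of innate-like T cells and ILC2, cells that use Rora, summed to 55.4 to 78.8 FPKM in Bcl11bfl/fl:Cd4-Cre, 65.2 to 102.1 in Bcl11bm/m and 32.6 to 49.8 in wild-type. Slamf6, a receptor gene also expressed by other T cells, made up most of these sums, at 54.2 to 71.9, 64.6 to 101.3 and 32.4 to 49.6 FPKM. In Bcl11bfl/fl:Cd4-Cre replicate 1, the library with the highest Rora value, the sum was 78.8 FPKM and Slamf6 was 63.9. Of the 8 markers 2 were testable, and Slamf6 was called higher in both mutants, a call lost in the Cd4-Cre group without any 1 library but wild-type replicate 1 or mutant replicate 2 (limma adjusted p up to 0.132) and in Bcl11bm/m without its replicate 1 or 2 (up to 0.0853). The other, the γδ T cell factor gene Sox13, was 0.478 to 13.9 FPKM in the Cd4-Cre group, above all wild-type (0 to 0.452) and Bcl11bm/m values (0.218 to 0.284), and was not called against wild-type (limma adjusted p = 0.0719). Il17a and Areg were listed at 0 in all libraries, and Il23r in all mutant libraries. The part of such cells in the Rora values was not tested. Of 14 clock genes with ROR-responsive elements or roles in the clock, 10 passed the filter, and in Bcl11bm/m none was called by limma, with 3 at an unadjusted p under 0.05 and 1 called without wild-type replicate 1 or 3. Among the Cd4-Cre libraries Cry2, a clock repressor, rose from 5.69 ± 0.569 to 8.33 ± 1.39 FPKM (log2 difference of 0.47 ± 0.13, limma adjusted p = 0.0402). This count ran from 0 to 3 when libraries were left out, with 3 without mutant replicate 2 and 0 without any 1 of wild-type replicates 2 to 5 or mutant replicates 1, 3 and 4. Between the mutants none was called by limma and 2 had an unadjusted p under 0.05.

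The Th17 cytokine genes Il17a, Il22 and Il21 were listed at 0 in all 12 libraries. Of 15 Th17 genes, 7 passed the filter, with 1 higher and 1 lower in either mutant. This is 28.6% of the 7, against 17.3% of all genes called in Bcl11bm/m and 14.5% in the Cd4-Cre group. In Bcl11bm/m the transcription factor gene Maf was higher (0.437 ± 0.188 to 1.84 ± 0.117 FPKM, log2 difference of 0.99, limma adjusted p = 9.7e-04), and it passed the filter through the mutants. The receptor gene Il17re was lower there (5.29 ± 1.35 to 1.02 ± 0.236, log2 difference of -1.62, limma adjusted p = 9.0e-04). In the Cd4-Cre group the cytokine-signalling factor Stat3 rose by 0.47 and the hypoxia factor Hif1a fell by 0.45 on the log2 scale (limma adjusted p = 0.0469 and 0.0495). The Stat3 call was lost on leaving out any library but wild-type replicate 1 (limma adjusted p up to 0.132). The Hif1a call was lost on leaving out any but wild-type replicates 1 and 4 and mutant replicate 2 (up to 0.131). The count of Th17 genes called was then 0 without wild-type replicate 2, 3 or 5 or mutant replicate 1 or 4, and 1 without wild-type replicate 4 or mutant replicate 2 or 3. Between the mutants Hif1a was higher in Bcl11bm/m (log2 difference of 0.43, limma adjusted p = 0.0387), a call lost on leaving out any library but Cd4-Cre replicate 2 (up to 0.133).

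The T-box genes were near the limit of detection. Tbx21 (chromosome 11, 96959385 to 96976645) was 0.122, 0.275, 0.107, 0.415 and 0.210 FPKM in wild-type, 0, 0.309 and 0 in Bcl11bm/m and 0.0647, 0.0387, 0.242 and 0.0313 in Bcl11bfl/fl:Cd4-Cre. It was listed at 0 in 2 of 3 Bcl11bm/m libraries and was detected in all wild-type libraries, but the ranges overlapped and no library held more than 10 estimated fragments. The exact permutation p was 0.25 for Bcl11bm/m and 0.111 for Bcl11bfl/fl:Cd4-Cre against wild-type. For the latter the ratio of fragment rates was 0.419 (exact 95% interval 0.199 to 0.904, 19 against 14 fragments), an interval for counting error that leaves out the spread between libraries. Eomes (chromosome 9, 118387330 to 118395250) was 0.0083, 0.0023, 0, 0.148 and 0 FPKM in wild-type, 0.106, 0.147 and 0.137 in Bcl11bm/m and 0.0613, 0.138, 0.308 and 0.0933 in Bcl11bfl/fl:Cd4-Cre. All mutant values were above 4 of the 5 wild-type values, and wild-type replicate 4 alone overlapped. The exact permutation p was 0.143 and 0.0635, respectively.

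Eomes rested on 0 to 2 estimated fragments per wild-type library, 1 to 2 in Bcl11bm/m and 5 to 19 in Bcl11bfl/fl:Cd4-Cre. In wild-type libraries 3 fragments on the shortest coding transcript would give 0.268 to 0.467 FPKM, which is above every Bcl11bm/m value. Limma without the filter gave an adjusted p of 0.154 for Bcl11bm/m and 0.211 for Bcl11bfl/fl:Cd4-Cre. Without wild-type replicate 4 the former became 0.00225, an alternative added after the data had been seen, and since that library was the one that overlapped the mutants this value is no support for a difference. The ratio of pooled fragment rates to wild-type was 6.08 in Bcl11bm/m (exact 95% interval 0.995 to 63.8, 5 against 2 fragments) and 6.03 in Bcl11bfl/fl:Cd4-Cre (1.56 to 51.5, 39 against 2), for counting error alone.

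Several genes that T-box factors are known to activate were higher in both mutants. Of 20 such genes 7 passed the filter, of which 5 rose and none fell in Bcl11bm/m, with a list median of 1.38 on the log2 scale against -0.02 for all genes. In wild-type only 4 of the 20 averaged 1 FPKM, and Il18r1, Il18rap and Ccl5 passed through a mutant group, so that the counts and medians of this list are partly set by the filter. Il12rb2, the signalling chain of the IL-12 receptor, rose from 2.11 ± 0.767 to 26.1 ± 14.0 FPKM (log2 difference of 3.04 ± 0.33, limma adjusted p = 6.2e-04). Il18r1, the IL-18 receptor chain, rose from 0.240 ± 0.0623 to 5.42 ± 0.518 FPKM (log2 difference of 2.37 ± 0.10, limma adjusted p = 2.6e-06). Stat4, which signals for IL-12, rose by 1.38 and the perforin gene Prf1 by 0.86 on the log2 scale, Prf1, the fifth, being named after its value was seen. The IL-18 receptor subunit gene Il18rap was 0.0631 FPKM in wild-type replicate 1, listed at 0 in the other 4, and 1.12, 1.81 and 1.35 FPKM in Bcl11bm/m. The members that rose were thus receptors and signalling genes together with perforin. With 1 library left out the count in Bcl11bm/m was 4 to 5. Il12rb2, Il18r1, Stat4 and Il18rap kept their calls in all 8 cases, so the call that was lost was that of Prf1.

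In the Cd4-Cre group 3 of the 7 rose and 1 fell, with a list median of 0.67 against -0.09 for all genes. Il12rb2 reached 28.2 ± 12.8 FPKM (log2 difference of 3.12 ± 0.35, limma adjusted p = 0.00186) and Il18r1 5.69 ± 4.03 (2.26 ± 0.32), while Il18rap, the other that rose, was 2.25, 0.559, 8.66 and 5.91 FPKM. Prf1 fell to 0.946 ± 0.257 FPKM from 2.44 ± 0.918 (log2 difference of -0.80 ± 0.20, limma adjusted p = 0.0257), a call lost without wild-type replicate 3 or mutant replicate 1, 3 or 4 (adjusted p up to 0.0741). Between the mutants Prf1 was higher in Bcl11bm/m (log2 difference of 1.66 ± 0.16, limma adjusted p = 0.00232). The chemokine gene Ccl5 was 12.28, 2.22 and 2.16 FPKM there, 0.797, 0, 0.174 and 0.225 in the Cd4-Cre group and 0.439, 1.98, 1.53, 0 and 0 in wild-type. Between the mutants it was called (limma adjusted p = 0.0498), a call lost (count down to 1) without any 1 library but Bcl11bm/m replicate 1. Ifng and the cytotoxic granule gene Gzmb were listed at 0 in all wild-type and Bcl11bm/m libraries, and Klrg1 in all 12 libraries.

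NK cells express the same receptors, and the summed level of their markers was above wild-type in all Bcl11bm/m libraries and overlapped it in the Cd4-Cre group. The 8 NK markers summed to 223 to 431 FPKM in Bcl11bm/m, 65.1 to 193 in Bcl11bfl/fl:Cd4-Cre and 16.8 to 68.9 in wild-type. Of the 3 testable markers, all rose in Bcl11bm/m and 1, Gzma, in Bcl11bfl/fl:Cd4-Cre, where its values overlapped wild-type. Gzma carried most of the sum (276 ± 115 FPKM in Bcl11bm/m). Klrb1c did not exceed 0.6045 FPKM in wild-type and passed the filter through the mutants, so this count is partly set by the filter. The Gzma call in the Cd4-Cre group was lost in 5 of 9 cases with 1 library left out (wild-type replicates 4 and 5 and mutant replicates 1, 3 and 4, limma adjusted p up to 0.0917). In Bcl11bm/m the Klrb1c values were 0.301, 6.94 and 5.41 FPKM and also overlapped wild-type. The Klrb1c call there was lost in 7 of 8 cases, all but Bcl11bm/m replicate 1 (limma adjusted p up to 0.187). The activating receptor gene Ncr1 was listed at 0 in all wild-type and all Bcl11bfl/fl:Cd4-Cre libraries. The part of NK cells in the T-box target genes was not tested.

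Foxp3 (chromosome X, 7156802 to 7172369) was 0, 0.0465, 0, 0.0699 and 0.0471 FPKM in wild-type, 0.105, 0 and 0.0677 in Bcl11bm/m and 0.0756, 0.106, 0.147 and 0.0633 in Bcl11bfl/fl:Cd4-Cre. It was thus above 0 in all 4 Bcl11bfl/fl:Cd4-Cre libraries and at 0 in 2 wild-type and 1 Bcl11bm/m library, with overlap in each comparison. For Bcl11bfl/fl:Cd4-Cre against wild-type the exact permutation p was 0.0317, where 8.87% of rows under the filter had a p under 0.05. Limma without the filter gave an adjusted p of 0.108 for it. With 1 library left out the exact p was 0.0571 or 0.0714 in 7 of 9 cases, all but wild-type replicate 4 and mutant replicate 4, and it was 0.27 under quantile normalization. The Bcl11bfl/fl:Cd4-Cre values rested on 3 to 13 estimated fragments per library, against 0 to 1 in wild-type and Bcl11bm/m. In wild-type libraries 3 fragments would correspond to 0.125 to 0.218 FPKM, against a highest mutant value of 0.147. The ratio of fragment rates for Bcl11bfl/fl:Cd4-Cre was 3.09 (exact 95% interval 0.961 to 15.8, 30 against 3 fragments), for counting error alone. For Bcl11bm/m against wild-type the exact permutation p was 0.50.

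Genes on which Foxp3 induction depends were well detected, with all 15 past the filter. In Bcl11bm/m 1 rose and 1 fell, with a list median of -0.08 on the log2 scale against -0.02 for all genes. Foxo1, which activates the Foxp3 promoter, rose from 11.03 ± 2.41 to 28.5 ± 3.50 FPKM (log2 difference of 1.31 ± 0.19, limma adjusted p = 0.00254). Nr4a1, a factor induced by T cell receptor signals, fell from 20.1 ± 4.34 to 4.41 ± 0.328 FPKM (log2 difference of -1.94 ± 0.18, limma adjusted p = 2.8e-04). In the other mutant Smad3, the TGF-β effector, rose from 14.2 ± 0.998 to 45.6 ± 7.91 FPKM (log2 difference of 1.61 ± 0.13, limma adjusted p = 5.2e-04) and Foxo1 rose by 0.96, whereas Cbfb, the partner of Runx proteins, fell by 0.65, a call lost without wild-type replicate 2 or mutant replicate 1 or 4 (adjusted p up to 0.0684). Smad3 differed between the mutants (log2 difference of -1.48 ± 0.14 in Bcl11bm/m minus Bcl11bfl/fl:Cd4-Cre, limma adjusted p = 0.00225), as did Runx1 (0.58 ± 0.11, adjusted p = 0.0193). Without wild-type replicate 1 the count rose to 5 against wild-type in either mutant. Between the mutants it was 1 without Bcl11bm/m replicate 2 or 3 or Bcl11bfl/fl:Cd4-Cre replicate 1, and 5 without Bcl11bfl/fl:Cd4-Cre replicate 3. Under median-ratio scaling and quantile normalization, 7 and 6 of these genes were called in Bcl11bm/m.

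Of 20 regulatory T cell genes, 7 passed the filter. In the Cd4-Cre group 1 rose, which is 14.3% of the 7 against 14.5% of all genes called. In Bcl11bm/m 2 rose and none fell, which is 28.6% of the 7 against 17.3% of all genes called. The list median there was 0.25 on the log2 scale against -0.02 for all genes. Il2ra, the IL-2 receptor alpha chain, rose from 3.73 ± 1.08 to 62.9 ± 46.5 FPKM (log2 difference of 3.55 ± 0.39, limma adjusted p = 7.3e-04), and Ikzf2, encoding Helios, from 7.32 ± 1.95 to 18.4 ± 0.376 FPKM (1.26 ± 0.20, adjusted p = 0.00421). Both genes are also expressed outside regulatory T cells. Among Cd4-Cre libraries Ikzf2 reached 16.0 ± 7.72 FPKM (log2 difference of 0.97 ± 0.28, limma adjusted p = 0.0439), a call lost on leaving out any library but mutant replicate 4 (adjusted p up to 0.110). Il2ra differed between the mutants by 3.37 ± 0.52 (limma adjusted p = 0.0121), where 2 genes of the list were called without Bcl11bm/m replicate 3. Il10 was listed at 0 in all 12 libraries.

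Prdm1 (chromosome 10, 44156983 to 44248307) was 0.262, 0.327, 0.101, 0.839 and 1.16 FPKM in wild-type, 0.148, 0.245 and 0.0478 in Bcl11bm/m and 0.365, 0.607, 0.127 and 0.387 in Bcl11bfl/fl:Cd4-Cre. Wild-type replicates 4 and 5 were higher than all mutant libraries, and wild-type replicate 3 fell among the lowest. The log2 difference from wild-type was -0.38 in Bcl11bm/m (95% confidence interval -0.93 to 0.16, exact permutation p = 0.143) and -0.13 in Bcl11bfl/fl:Cd4-Cre (-0.60 to 0.34, exact permutation p = 0.587). About 2 to 37 fragments per wild-type library and 1 to 5 per Bcl11bm/m library lay behind these values. For Bcl11bm/m the ratio of fragment rates was 0.256 (exact 95% interval 0.107 to 0.530, 8 against 76 fragments), for counting error alone and not for the spread between libraries.

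Of 13 genes of the Prdm1 network 12 were in the table and 8 passed the filter. Limma called 25% of the 8 in the Cd4-Cre group, against 14.5% of all genes. In Bcl11bm/m 2 rose and 2 fell, which is 50% of the 8 against 17.3% of all genes called. Id2, an inhibitor of E proteins, rose from 3.77 ± 0.938 to 30.6 ± 5.92 FPKM (log2 difference of 2.73 ± 0.19, limma adjusted p = 6.6e-05) and Myc, which Blimp-1 represses, from 9.47 ± 1.69 to 38.8 ± 13.5 (1.89 ± 0.22, adjusted p = 9.2e-04). Il21r (-1.41) and Bcl6 (-0.50), the latter the factor that opposes Blimp-1, fell, with the Bcl6 call lost without wild-type replicate 5 or mutant replicate 2 or 3 (limma adjusted p up to 0.0919). In the Cd4-Cre group Id2 rose to 45.0 ± 37.1 FPKM (log2 difference of 2.96 ± 0.43, limma adjusted p = 0.00442), and Xbp1, a secretory factor, fell by 0.84. Between the mutants Myc was higher in Bcl11bm/m by 1.72 ± 0.28 (limma adjusted p = 0.0138). Without Bcl11bm/m replicate 1 or Bcl11bfl/fl:Cd4-Cre replicate 3 the count between the mutants was 2. Under 5 other processing settings that count ran from 1 to 3.

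**Figure D3:**
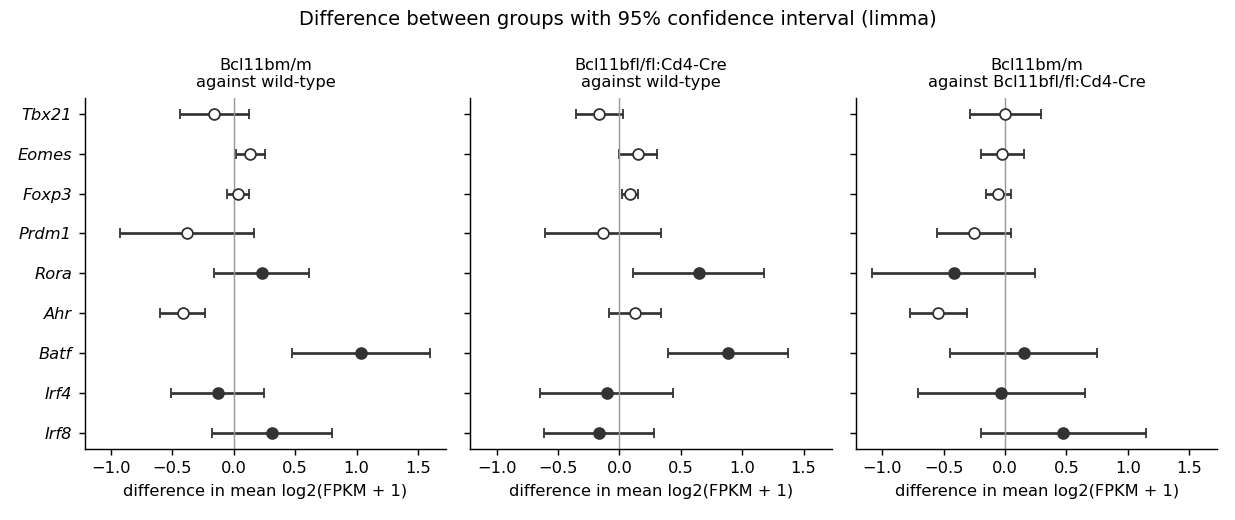
Difference in mean log2(FPKM + 1) (x axis) of the 9 transcription factors in the 3 comparisons, with 95% confidence intervals from limma. Filled points passed the filter on low genes, and open points come from the fit without it. Batf lies above 0 in both comparisons with wild-type (1.04 and 0.88), and Ahr lies below 0 in Bcl11bm/m against both other groups (-0.42 and -0.54).

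**Figure D4:**
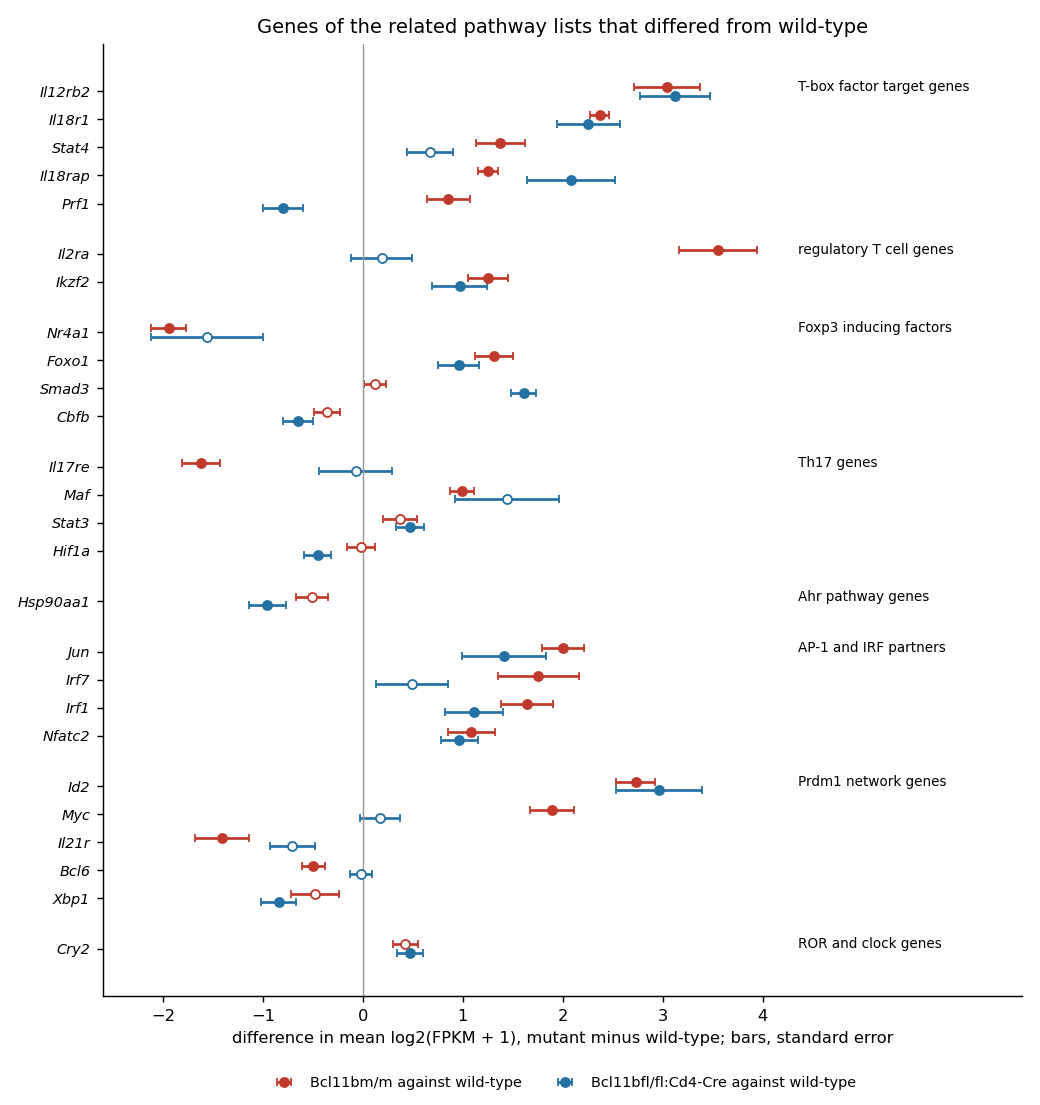
Difference from wild-type in mean log2(FPKM + 1) (x axis) with its standard error, for up to 4 called genes of each related list in either mutant. Red is Bcl11bm/m, blue is Bcl11bfl/fl:Cd4-Cre, and filled points passed the threshold. Il12rb2, Il18r1 and Id2 were called higher in both mutants, as was Jun, whose Cd4-Cre values overlapped wild-type and whose call there was lost in 7 of 9 cases with 1 library left out, whereas Il2ra was called in Bcl11bm/m and Smad3 in Bcl11bfl/fl:Cd4-Cre.

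The genes whose profile over the 12 libraries was most like that of a member were found by the root mean square difference of centred log2 values. For Batf they were Mfng (0.193) and Lace1 (0.195), against a spread of Batf around its own mean of 0.569. Mfng, which encodes a Notch-modifying glycosyltransferase, averaged 15.1 FPKM in wild-type, 27.5 in Bcl11bm/m and 27.4 in Bcl11bfl/fl:Cd4-Cre. For Rora they were Eme2 (0.225) and H6pd (0.239, against 0.413), for Irf4 Ahi1 (0.163) and 6430562O15Rik (0.187, against 0.316) and for Irf8 Smek2 (0.185) and Afmid (0.194, against 0.350).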

How the data were processed

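Groups, members and gene lists were chosen with earlier results of these data known. Per the labels' processing notes, the authors used TopHat2 2.8.0 and Cufflinks 2.1.1 with build mm9, and deposited FPKM per gene and library. The sources used here name no scaling between libraries, and the labels and the methods describe different library kits. Positions are from GENCODE vM1 on NCBIM37. Values were analysed as log2(FPKM + 1). The 10780 rows whose average over 12 libraries reached 1 FPKM were tested with limma 3.58.1 in R 4.3.3 (lmFit, eBayes with trend) fitted to each pair of groups, with two-sided p-values adjusted by Benjamini-Hochberg and a threshold of 0.05. Members were also tested by exact two-sided permutation of mean differences (numpy 2.4.6). Fragment numbers were estimated from the spacing of low FPKM values: 64.5 to 76.0% of them lay within 0.1 of a whole fragment, against 20% for even spacing. They use the longest coding transcript, and exact intervals of their ratios (scipy 1.17.1) cover counting error only. The procedure was tested on simulated data. Named were the 9 members, up to 4 called genes per list and comparison by size of difference, and the 2 most alike genes for each member past the filter. Alternatives were another pseudocount, no filter, quantile normalization, median-ratio scaling, a fit of all groups together, a replicate block and leaving out each library. The result for 1 further gene is not reported here.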

Additional observations from a re-analysis of the deposited data

Results flagged for a closer look

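Among the 9 members in groups of 4 or 5 libraries, 2 single values stood apart from the rest of their group. Tbx21 in Bcl11bfl/fl:Cd4-Cre replicate 3 was 0.242 FPKM, against 0.0313 to 0.0647 in the other 3, a gap of 0.841 of the group's range. Eomes in wild-type replicate 4 was 0.148 FPKM, against 0 to 0.0083 in the other 4, a gap of 0.944 of the range. Chance alone can give such gaps in groups of this size. Without Bcl11bfl/fl:Cd4-Cre replicate 3 the exact permutation p for Tbx21 against wild-type was 0.0357 with a log2 difference of -0.22, and without wild-type replicate 4 that for Eomes in Bcl11bfl/fl:Cd4-Cre was 0.0286 with a difference of 0.19. These 2 fits are given because the library left out lay apart from its own group and toward the other, so their p-values give no support for a difference.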

How the results depend on the processing

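Replicate numbers do not pair the samples (correlations of same-numbered libraries from -0.211 to 0.152). With the replicate block 293, 445 and 46 genes were called in Bcl11bm/m against wild-type, Bcl11bfl/fl:Cd4-Cre against wild-type and between the mutants, in place of 1866, 1564 and 1102, and 0 members were called against wild-type (Batf adjusted p of 0.197 and 0.0535, limma). Without the filter 2, 0 and 1 members were called. Leaving out 1 library gave 1021 to 2349, 700 to 2678 and 313 to 1121 genes, and 0 to 1, 0 to 2 and 0 to 0 members called. Under median-ratio scaling the all-gene median between the mutants went from 0.091 to -0.012, where 822 higher and 280 lower calls became 565 and 531, and there were 834 higher and 966 lower in Bcl11bfl/fl:Cd4-Cre against wild-type in place of 501 and 1063. Quantile normalization gave 572 and 523, and 818 and 1096. Among the members, only differences that were not called changed sign. Between the mutants Irf4 (-0.03) became 0.047 with a pseudocount of 0.1 and 0.16 with the replicate block, and Tbx21 (0.004) became -0.162 with that pseudocount and -0.00483 under quantile normalization. With libraries left out, the range was -0.294 to 0.0897 for Irf4 and -0.240 to 0.00384 for Prdm1 in Bcl11bfl/fl:Cd4-Cre against wild-type. Between the mutants it was -0.222 to 0.162 for Irf4, -0.126 to 0.0689 for Tbx21, -0.0579 to 0.0424 for Eomes and -0.0541 to 0.333 for Batf. Tbx21 was -0.00767, -0.0196 and -0.0230 there without Cd4-Cre replicate 1, 2 and 4. The causes were not tested. Depth limits Tbx21, Eomes and Foxp3, whose libraries hold at most 10, 19 and 13 estimated fragments, and the Bcl11bfl/fl:Cd4-Cre libraries were the deepest.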
